A study of Homo sapiens with 4 samples.

Results

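The MYC, MAX and MXD network genes were taken as 9 genes of 20037 protein-coding genes on chromosomes 1 to 22, X and Y: MYC, MAX, MXD1, MXD3, MXD4, MXI1, MNT, MGA and MLX. Chromatin of 22RV1, a human prostate cancer cell line, was profiled by an assay given as CUT&Tag, which tags DNA near an antibody-bound protein. The labels' protocols instead describe fixed, sonicated chromatin with input and precipitated material, and which assay made these libraries cannot be told. There were 4 libraries, 1 per group. One group received PD0332991 (palbociclib, an inhibitor of the CDK4 and CDK6 kinases) and another an siRNA against RB, and each of these has its own control library. All 4 came from the same cell line, and the labels name no agent for either control, no dose and no time. Which protein the antibody recognised is not stated in the labels. In each library the members were found by the listed summit, the highest point of an interval, lying within 1000 bp of either end of the gene in RefSeq (GRCh38). The set was chosen by family membership and by its listed summits, with earlier results of these data known, so their counts and levels are a description and no test was run on them. Because each group held 1 library, no difference has a replicate check, and every interval covers counting error only.

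The proteins of this network bind DNA as pairs. MYC drives growth and is active when paired with MAX, and the pair recognises the E-box, a short palindromic DNA word. MXD1, MXD3, MXD4, MXI1 and MNT compete for MAX and repress through the SIN3 corepressor with its histone deacetylases. MGA pairs with MAX inside a variant Polycomb complex, and MLX, a relative of MAX, joins the glucose-responsive factors MLXIP and MLXIPL and some of the repressors. MYC is often raised in prostate cancer.

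The sequences upstream of the starts are shown for the 5 repressor genes with summits of 5 or more FPM (fragments per 1000000, explained below with the levels), because the summits lay at or close to these starts. Each is the 250 bases before a start listed by RefSeq (GRCh38.p14), 5′ to 3′ in the direction of the gene. Capitals mark the E-box CACGTG, which reads the same on both strands.
MXI1 (the third listed start, chr10:110225746-110225995, plus strand): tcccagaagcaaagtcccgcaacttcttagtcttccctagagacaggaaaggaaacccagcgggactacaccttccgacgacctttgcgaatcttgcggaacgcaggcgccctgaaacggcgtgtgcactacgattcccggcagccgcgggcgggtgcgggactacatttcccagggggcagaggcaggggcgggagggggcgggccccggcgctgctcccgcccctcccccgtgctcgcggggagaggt
MNT (chr17:2401061-2401310, minus strand): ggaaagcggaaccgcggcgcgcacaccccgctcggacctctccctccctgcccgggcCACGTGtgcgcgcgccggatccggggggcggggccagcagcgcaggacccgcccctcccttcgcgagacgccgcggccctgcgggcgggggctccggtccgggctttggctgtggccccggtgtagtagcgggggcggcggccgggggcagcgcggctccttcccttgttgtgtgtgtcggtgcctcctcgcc
MXD1 (chr2:69914859-69915108, plus strand): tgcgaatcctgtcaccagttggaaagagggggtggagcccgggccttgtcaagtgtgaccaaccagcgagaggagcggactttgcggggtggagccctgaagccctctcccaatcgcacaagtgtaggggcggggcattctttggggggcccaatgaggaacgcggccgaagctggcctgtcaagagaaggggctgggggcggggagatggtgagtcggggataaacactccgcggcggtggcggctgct
MXD3 (chr5:177312753-177313002, minus strand): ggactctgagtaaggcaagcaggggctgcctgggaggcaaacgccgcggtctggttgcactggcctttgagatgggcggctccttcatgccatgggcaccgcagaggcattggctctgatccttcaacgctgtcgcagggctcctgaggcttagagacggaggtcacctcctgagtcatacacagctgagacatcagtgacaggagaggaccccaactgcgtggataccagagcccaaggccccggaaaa
MXD4 (chr4:2262110-2262359, minus strand): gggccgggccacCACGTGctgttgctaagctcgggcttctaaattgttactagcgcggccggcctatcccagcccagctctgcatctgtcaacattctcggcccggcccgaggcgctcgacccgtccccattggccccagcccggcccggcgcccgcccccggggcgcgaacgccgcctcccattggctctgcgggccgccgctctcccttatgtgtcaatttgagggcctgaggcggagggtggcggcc
The E-box was present at MNT and MXD4, and it was also present in the window of MLX, 45 to 50 bases before its start. Across the 13 windows of the 8 members with a listed start, 3 held it, and 7.33% of 21982 such windows of protein-coding genes did. The ETS word CCGGAAG, searched on both strands, matched 1 member window, at MAX, against 10.7% of all windows. The E2F words TTTCCCGC and TTTGGCGC, also searched on both strands, matched 1 member window, that of the third listed start of MGA, against 2.39%. The windows of MXD1, MXD3 and the third start of MXI1 held none of these words. A match is a description of letters, not a measured site.

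Levels are given in FPM, the treatment fragments that cover the summit base, recovered from the deposited fold and p, per 1000000 treatment fragments of the library. An FPM is a height at 1 base, so it does not depend on gene length. It does depend on fragment length, and no correction was made for that. The recovered fragment lengths were 191, 183, 174 and 204 bp (inhibitor control, PD0332991, siRNA control, RB siRNA). The libraries held 1909343 to 3479671 recovered treatment fragments, and 1 fragment was worth 0.29 to 0.52 FPM. The background behind the calls was thin, with 7641 to 36250 recovered read ends, and the intervals were wide, with medians of 189 and 179.7 kb in the controls and 557 and 718 kb in the treated libraries. A base with 0 fragments at the genome-wide background already had a −log10 p of 2.61, 3.19, 2.63 and 3.24 (inhibitor control, PD0332991, siRNA control, RB siRNA). The lowest listed values were 1.37, 1.45, 1.32 and 1.40. Most member summits carried exactly the p of 0 fragments, MXD1 in all 4 libraries, so a listed summit is not by itself a call of enrichment. An interval is listed with its highest summit alone, which hides any lower one, and the level there is then known only as an upper limit. Of 11 marker genes of prostate luminal epithelium, FOXA1 alone had a gene-end summit, in 3 of the libraries, and none of the 11 had one in the inhibitor control. FOXA1 shares this end with TTC6 and had 3.67, 3.16 and 6.19 FPM (PD0332991, siRNA control, RB siRNA). Of 13 blood, endothelial, fibroblast and liver markers, COL1A2 alone had one, after RB siRNA, with 2.06 FPM. Over all protein-coding genes 16.8%, 7.73%, 17.3% and 6.63% had one (inhibitor control, PD0332991, siRNA control, RB siRNA). Nothing about cell identity is read from these counts.

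Summits at gene ends were listed for 4 of the 9 members in the inhibitor control, 5 under PD0332991, 4 in the siRNA control and 3 with RB siRNA. Over all protein-coding genes the shares with such a summit were 16.8%, 7.73%, 17.3% and 6.63% in the same order. Since the members were picked with these summits known, nothing is read from the excess. MXD1 and MXD3 had a gene-end summit in all 4 libraries, MAX in 3, and MYC and MXD4 in 2. MNT had one under PD0332991 alone. MXI1, MGA and MLX had none in any library. The authors' −log10 q was at most 1.07 at every one of these gene-end summits, so none reached a q of 0.05. The distances just inside the 1000 bp window were 661 bp at MXD3 and 823 bp at MYC under PD0332991, and those just outside were 1200 and 1252 bp at MNT in the inhibitor control and the siRNA control.

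**Figure D1:**
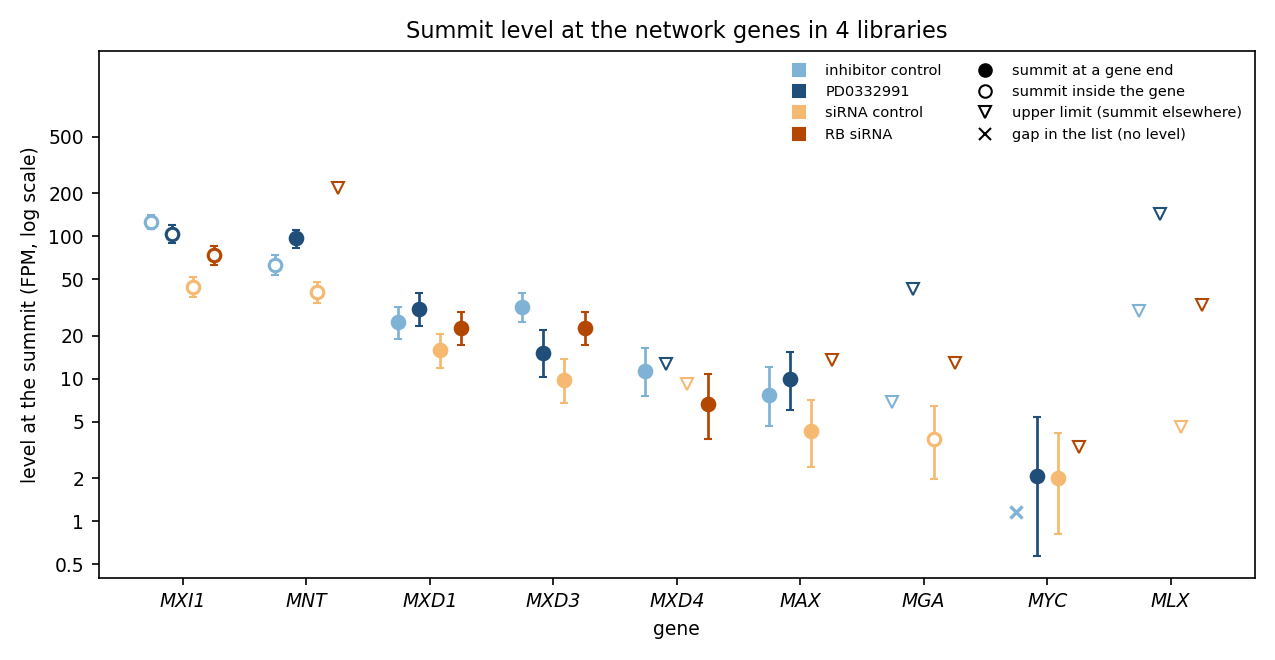
Summit level in FPM (log axis) at each of the 9 genes in the 4 libraries, with 95% Poisson intervals that cover counting error. Filled points are summits at a gene end, open points are summits inside the gene, triangles are upper limits from an interval with its summit elsewhere, and the cross is a gap in the list. MXI1 was highest of the members with a summit in every library, from 44.3 to 126 FPM, and MYC had 2.09 and 2.01 FPM in the 2 libraries that list a summit for it.

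MXI1, which encodes a MAX-binding repressor, carried the highest summit among the members with one of their own in each library, and the rule on gene ends missed it. Members hidden in wide intervals could be higher, since MNT with RB siRNA was limited only to 219 FPM and MLX under PD0332991 to 144. RefSeq places MXI1 at chr10:110207605-110287365 and lists 3 starts for it. The summit lay inside the gene, 19.1 to 19.2 kb from its 5′ end and 680 to 770 bp downstream of the third listed start at position 110225996, whose upstream sequence is printed above. It had 126 FPM (95% interval 112 to 140.5, 309 fragments) in the inhibitor control. Under PD0332991 it had 104 FPM (90.2 to 119.8, 199 fragments). The siRNA pair was lower, with 44.3 (37.5 to 51.8, 154 fragments) in the control and 73.5 (63.1 to 85.1, 178 fragments) with RB siRNA. The siRNA control was the low library and the inhibitor control the high one, and both treated libraries lay between them in FPM. They did so too after the same subtraction of the median profile, explained below for MXD3, with 0.46, -0.04, -0.38 and -0.10 in the inhibitor control, PD0332991, siRNA control and RB siRNA libraries. The summit was higher than 96.7% to 99.0% of all listed summits in its library. Its −log10 q of 9.95 in the inhibitor control was the highest of any member, while it was 1.00 in the siRNA control and 0 in both treated libraries. The inhibitor control also listed a small summit in MXI1, 1077 bp downstream of the second listed start, with 4.88 FPM from 12 fragments.

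Members were also counted by listed starts in place of gene ends, a choice made after seeing the data. Of the 8 members with a listed start, 5, 5, 5 and 4 had a summit within 1000 bp of one. The shares over the 15843 protein-coding genes with a listed start were 18.7%, 8.51%, 19.1% and 7.38%. MYC had no listed start and could not count. The order is inhibitor control, PD0332991, siRNA control and RB siRNA. MXI1 counted in all 4 libraries by this rule. The summit of MGA in the siRNA control also counted.

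**Figure D2:**
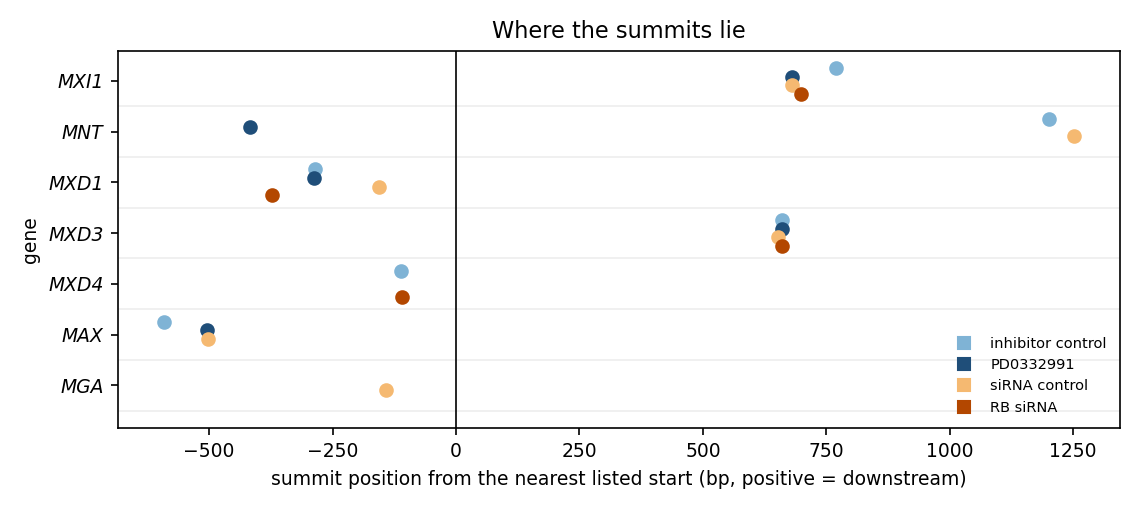
Distance in bp from each member's summit to the nearest start listed by RefSeq, positive downstream, with a point per library. The MXD3 and MXI1 summits lie downstream of the start and the MXD1, MXD4 and MAX summits upstream, while MNT has a summit 417 bp upstream under PD0332991 and about 1200 bp downstream in the controls.

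MXD3, which encodes a MAX partner of the repressor class and is known for expression in proliferating cells, had the most variable level of the members seen in all 4 libraries. The gene lies at chr5:177305499-177312752 on the minus strand, and its summit fell 653 to 661 bp downstream of the start. The position was the same base, 177312091, in 3 libraries and 8 bp away in the siRNA control. Such closeness was common. Of the paired gene-end summits of all genes, 31.6%, 35.3% and 30.4% lay within 10 bp (inhibitor, RB siRNA and control comparisons). The MXD3 level was 31.7 FPM (25.1 to 39.6, 78 fragments) in the inhibitor control and 15.2 (10.2 to 21.8, 29 fragments) under PD0332991. It was 9.77 (6.77 to 13.7, 34 fragments) in the siRNA control and 22.7 (17.1 to 29.5, 55 fragments) after RB siRNA. In FPM the inhibitor control was thus the highest library and the siRNA control the lowest, with both treated libraries between the controls. That order turned when the median profile of the summits shared by all 4 libraries was subtracted from the centred log2 levels, a scaling added after seeing the data: MXD3 then stood at 0.63 in the inhibitor control, -0.66 under PD0332991, -0.40 in the siRNA control and 0.36 with RB siRNA, so PD0332991 was lowest. In FPM, without this subtraction, the inhibitor control and the siRNA control differed 3.25-fold at MXD3. Of the 446 summits shared by all 4 libraries, 96.0% spanned a smaller range on that scale.

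MXD1, a MAX partner known for its rise as cells differentiate, spanned the smallest range of the 3 members seen in all 4 libraries. It lies at chr2:69915109-69942945 on the plus strand, and its summits fell 156 to 372 bp upstream of the start. The inhibitor control had 24.8 FPM (19.0 to 31.9) and PD0332991 30.9 (23.5 to 39.9), from 61 and 59 fragments. The siRNA control had 15.8 (11.9 to 20.6) and RB siRNA 22.7 (17.1 to 29.5), from 55 fragments each. The siRNA control was lowest and PD0332991 highest, and 42.4% of the summits shared by all 4 libraries spanned a smaller range. Its position moved over 216 bp between libraries, against 8 bp for MXD3 and 90 bp for MXI1. Paired gene-end summits of all genes lay a median of 42.0, 37.0 and 44.0 bp apart in the inhibitor, RB siRNA and control comparisons.

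MXD4, a further MAX-binding repressor, had a small summit in 2 libraries. The gene lies at chr4:2247432-2262109 on the minus strand, and the summits lay 110 and 111 bp upstream of the start, inside the sequence printed above. The level was 11.4 FPM (7.57 to 16.5, 28 fragments) in the inhibitor control and 6.60 (3.77 to 10.7, 16 fragments) after RB siRNA. Under PD0332991 the interval over the gene had its summit 5.19 kb from the gene, at the ends of POLN and HAUS3, which limits the level at MXD4 to 12.6 FPM. In the siRNA control the summit lay 274 kb away at FAM193A and limits it to 9.20 FPM. Neither limit lies below the level in the other libraries beyond counting error.

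MNT, a broadly expressed MAX partner that antagonises MYC, had the summits next in height to MXI1, at 2 different places. The gene lies at chr17:2384073-2401060 on the minus strand. In both controls the summit lay inside the gene, 1200 and 1252 bp downstream of the start, with 63.0 FPM (53.5 to 73.8, 155 fragments) in the inhibitor control and 40.5 (34.1 to 47.8, 141 fragments) in the siRNA control. Under PD0332991 it lay 417 bp upstream of the start, with 96.4 FPM (82.9 to 111, 184 fragments). The inhibitor control interval spans that upstream position and nowhere exceeded 63.0 FPM, so the level there was higher under PD0332991 by at least 0.61 on the log2 scale (95% interval of that bound 0.30 to 0.93), against a median of 0.20 over all shared summits. The position inside the gene cannot be compared in the same way, because the PD0332991 interval allows up to 96.4 FPM there. At the upstream summit under PD0332991 the authors' Poisson −log10 p was 1.45, the lowest listed in that library, and the −log10 q was 0. The inhibitor control summit inside the gene had 8.61 and 3.89. FPM takes no account of the local background used for these p, so the bound is one of height alone. After RB siRNA the interval over MNT was 3417 kb wide, with its summit of 219 FPM in ITGAE, and MNT was hidden.

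MAX, the shared partner of the network, had a low summit just upstream of its gene in 3 libraries. The gene lies at chr14:65006101-65102695 on the minus strand, and the summits fell 90 to 180 bp beyond its 5′ end. The inhibitor control showed 7.73 FPM (4.65 to 12.1, 19 fragments), against 9.95 (5.99 to 15.5, 19 fragments) under PD0332991 and 4.31 (2.41 to 7.11, 15 fragments) in the siRNA control. The intervals of the 3 levels overlap, although the log2 ratio of PD0332991 over the siRNA control, 1.21 (0.15 to 2.29), excluded 0 before any allowance for the general difference of these libraries. After RB siRNA the interval over MAX had its summit 2257 kb away, at the shared end of EIF2S1 and ATP6V1D, and MAX was limited to 13.6 FPM.

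MYC itself showed little signal. The gene lies at chr8:127735434-127742951. Its summit had 2.09 FPM (0.571 to 5.36) from 4 fragments under PD0332991, 823 bp inside the gene from its lower coordinate. In the siRNA control it had 2.01 FPM (0.809 to 4.14) from 7 fragments, 446 bp inside. These levels exceeded 26.4% and 61.9% of the listed summits in their libraries. After RB siRNA the interval spans 3798 kb with a highest level of 3.30 FPM, 1083 kb from MYC, so MYC was at or below that level. In the inhibitor control the lower end of MYC fell in a gap of 9960 bp between intervals, and the list gives no level there. No difference in MYC between libraries was detectable at this depth.

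MGA and MLX had no summit at a gene end. MGA, at chr15:41621224-41769940, had a summit in the siRNA control of 3.74 FPM (1.99 to 6.39, 13 fragments), 141 bp upstream of the third of its listed starts and 39.4 kb inside the gene. In the other libraries the intervals over MGA had their summits elsewhere and limit it to 6.91 FPM in the inhibitor control, 42.4 under PD0332991 and 12.8 after RB siRNA. MLX, at chr17:42567100-42573203, lay in intervals with summits 36.4 kb away or farther. Its level was limited to 4.60 FPM in the siRNA control, where the summit lay at RETREG3 and TUBG1. The limits were 29.7 FPM in the inhibitor control, 33.0 after RB siRNA and 144 under PD0332991. The first 2 of these came from summits at the end of CCR10.

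The members were also ordered within each library. In the inhibitor control MXI1 stood above MNT, MNT above MXD3, and the intervals of MXD3 and MXD1 overlapped, as did those of MXD4 and MAX. Under PD0332991 the intervals of MXI1 and MNT overlapped, and MXD1 stood above MXD3. In the siRNA control MXI1 and MNT again overlapped, the intervals of MXD1 and MXD3 met although their ratio, given below, excluded 1, and MAX, MGA and MYC overlapped. After RB siRNA MXI1 stood above MXD1 and MXD3, which had 55 fragments each, and both stood above MXD4.

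Under the inhibitor, MXD3 was lower than in the control and MXI1 was slightly lower, while MXD1 and MAX were within counting error. Matched summits, each the nearest of the other within 250 bp, existed for 4 of the members. For MXD3 the log2 ratio of PD0332991 over its control was -1.06 (95% interval -1.73 to -0.43), and for MXI1 it was -0.27 (-0.53 to -0.01). For MXD1 it was 0.32 (-0.22 to 0.86) and for MAX 0.36 (-0.63 to 1.36). The median log2 ratio of the 886 shared summits with a mean level (geometric) of 5 FPM or more was 0.20, and that of the 4 members 0.02. Relative to this median, MXD3 at -1.26 and MXI1 at -0.47 lay below it beyond counting error. Among all shared summits 7.56% lay below it and 9.26% above. Only 11 of the 886 shared summits had a lower ratio than MXD3, which was chosen with this value known.

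After RB siRNA, MXD3 and MXI1 were higher than in the siRNA control, and MXD1 was not separated from it. The log2 ratio was 1.22 (0.57 to 1.88) for MXD3, 0.73 (0.41 to 1.05) for MXI1 and 0.52 (-0.04 to 1.09) for MXD1. Most shared summits were higher after RB siRNA, with a median of 0.45 over 749. Relative to that median MXD3 lay above it by 0.77 (0.13 to 1.43), and MXI1 by 0.28 (-0.04 to 0.60), which is within counting error. Summits above the median beyond counting error made up 7.61% of all shared ones and those below it 5.74%, and 20 of 749 had a higher ratio than MXD3.

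MXD3 and MXI1 also differed between the controls. Setting the inhibitor control against the siRNA control gave a log2 ratio of 1.70 (1.10 to 2.32) for MXD3 and 1.51 (1.22 to 1.79) for MXI1. For comparison, it was 0.65 (0.10 to 1.20) for MXD1, 0.64 (0.30 to 0.98) for MNT at its summit inside the gene and 0.84 (-0.21 to 1.92) for MAX. The median over 1191 shared summits was 0.59. MXD3 and MXI1 lay above it beyond counting error, by 1.11 (0.51 to 1.74) and 0.92 (0.63 to 1.20), and MXD1, MNT and MAX did not. In raw ratios both genes differed more between the controls than in either treated comparison. Relative to the medians this held for MXI1 but turned for MXD3, with -1.26 under PD0332991 against 1.11 between the controls, and the differences between these ratios were not tested. Of all shared summits 11.9% lay above the median in this way and 8.40% below. Each treated comparison shares its control library with this one, so the ratios are not independent: the inhibitor control, high at MXD3, is the denominator of the fall under PD0332991, and the siRNA control, low at MXD3, that of the rise after RB siRNA. The treatment and the library of each control cannot be told apart with 1 library per group.

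**Figure D3:**
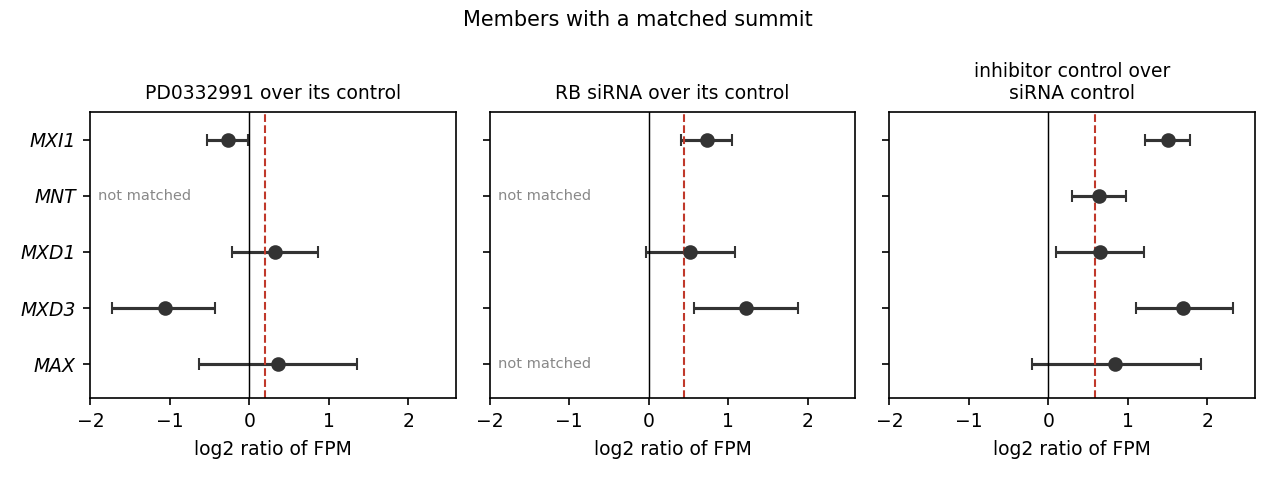
Log2 ratio of FPM at the matched summits of the members in the 3 comparisons, with exact 95% intervals for counting error. The solid line is a ratio of 1 and the dashed line is the median of all shared summits. MXD3 lies at -1.06 under PD0332991, 1.22 after RB siRNA and 1.70 between the controls.

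**Figure D4:**
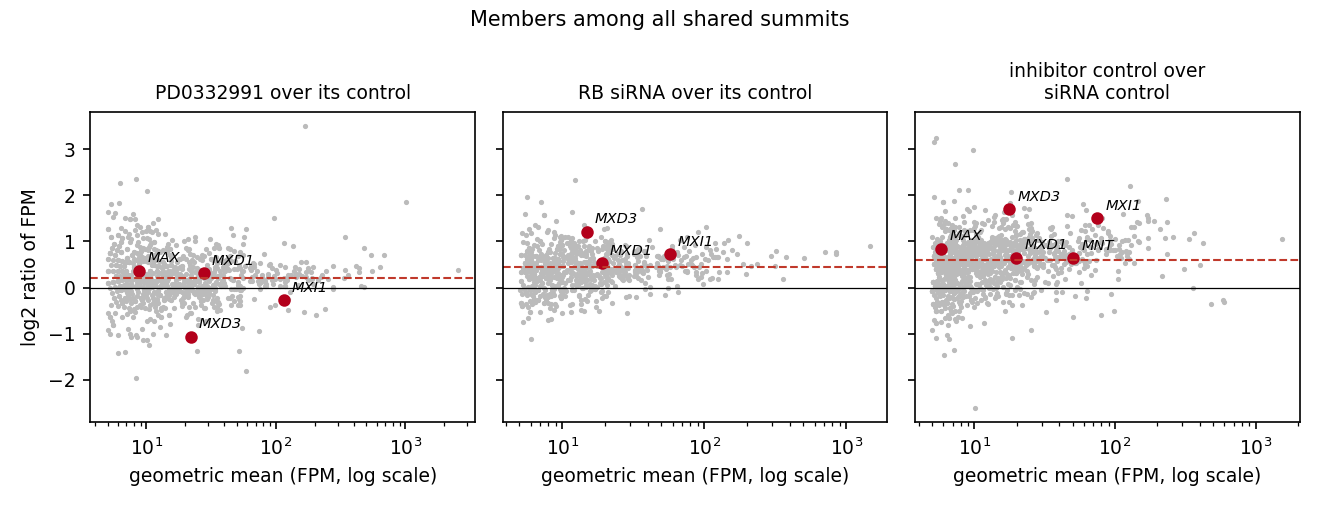
Log2 ratio against the geometric mean level (log axis) of all shared summits of at least 5 FPM in grey, with the members in red and the median as a dashed line. MXD3 lies near the lower edge for PD0332991 and near the upper edge in both other comparisons, and MXD1 lies close to the median in all 3.

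Ratios of one member to another within a library do not depend on its depth. The MXD3 summit stood at 1.28 times that of MXD1 (0.903 to 1.82) in the inhibitor control, 0.492 times (0.304 to 0.779) under PD0332991, 0.618 times (0.391 to 0.965) in the siRNA control and 1.00 times (0.675 to 1.48) after RB siRNA. The interval of the inhibitor control did not meet that of PD0332991. It overlapped that of RB siRNA, and that of the siRNA control only between 0.903 and 0.965. The MXI1 summit stood at 5.07 times that of MXD1 (3.84 to 6.78) in the inhibitor control, and at 3.37 (2.51 to 4.59), 2.80 (2.05 to 3.88) and 3.24 (2.38 to 4.46) times under PD0332991, in the siRNA control and in the RB siRNA library. All 4 intervals overlapped, those of the inhibitor control and the siRNA control only between 3.84 and 3.88. The MXI1 summit stood at 3.96 times that of MXD3 (3.08 to 5.15) in the inhibitor control, 6.86 (4.63 to 10.5) under PD0332991, 4.53 (3.11 to 6.78) in the siRNA control and 3.24 (2.38 to 4.46) with RB siRNA. Of these, the PD0332991 and RB siRNA intervals did not meet. An overlap of separate intervals does not show that 2 ratios are alike, and differences between these ratios were not tested.

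The gene-end summits with the pattern most like each member were found by the distance between their 4 log2 levels, each set centred on its mean. For MXD3 the nearest were LOC124900172 and ZSWIM6 (distance 0.40 each), RTL6 (0.47), KIF12 (0.48) and GLB1L2 (0.49). ZSWIM6 had 26.8, 18.3, 9.77 and 19.8 FPM in the inhibitor control, PD0332991, siRNA control and RB siRNA libraries. For MXI1 they were RAD54L (0.14), a recombination helicase gene, the shared end of CRYZL1 and ITSN1 (0.15), that of ZCWPW1 and MEPCE (0.18), STYX (0.22) and LOC124905351 (0.23). For MXD1 they were the shared end of S100A13 and CHTOP (0.06), EIF1AX and CDS1 (0.10 each), UMAD1 and the shared end of DNAI4 and MIER1 (0.11 each). The pattern of MXD1 was close to the median one. Likeness over 4 libraries is a description only.

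Partners and targets of the network were taken as 6 lists. Their counts stand against the 16.8%, 7.73%, 17.3% and 6.63% of all protein-coding genes with a gene-end summit in the inhibitor control, PD0332991, siRNA control and RB siRNA libraries, and since the lists were chosen with earlier results known, nothing is read from any excess. The list of MYC paralogs and related E-box or zinc finger factors had one at 4, 1, 1 and 1 of 8 genes in that order. MAZ, a zinc finger factor that shares its end with KIF22, was in all 4, with 178, 204, 94.3 and 148 FPM. It was higher in the inhibitor control than in the siRNA control relative to the median (log2 ratio 0.92, 0.71 to 1.13). In that comparison 11.9% of all shared summits lay above the median beyond counting error. MYCL and MLXIP had 4.07 and 2.85 FPM in the inhibitor control, and MYCN and MLXIPL had no gene-end summit.

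MYC cofactors and turnover factors had a gene-end summit at 8, 4, 7 and 7 of 16 genes in the same order. RUVBL1, an ATPase of chromatin remodelling complexes whose gene shares its end with EEFSEC, had 17.9, 17.8, 12.1 and 21.9 FPM. The kinase gene PIM1 had 16.3, 12.0, 11.8 and 15.7. SIN3 corepressor genes had one at 6, 4, 6 and 3 of 14, and ARID4B had 48.8, 42.9, 25.9 and 43.7 FPM. Matched summits with a geometric mean of 5 FPM or more existed for 3, 5 and 5 of the 16 cofactor genes (PD0332991, RB siRNA and control comparison). They existed for 2, 1 and 1 of the 14 SIN3 genes in the same order. None of these lay beyond counting error of the median. Of all shared summits, 7.56% lay below and 9.26% above it under PD0332991. Those shares were 5.74% and 7.61% after RB siRNA and 8.40% and 11.9% between the controls. With so few matched genes, nothing is read from this.

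Genes of the Polycomb complex that holds MGA had a gene-end summit at 3, 1, 4 and 2 of 11. RYBP, a subunit of it, had 3.66, 6.81, 10.1 and 6.19 FPM and was highest in the siRNA control. MXD3 and MXI1 were lowest in that library in FPM, and so was the median of the summits shared by all 4 libraries. Its centred log2 level was -0.49 in the siRNA control. In the inhibitor control, PD0332991 and RB siRNA libraries it was 0.18, 0.41 and -0.03. After subtraction of the median profile MXD3 was lowest under PD0332991 instead. A relation between RYBP and these members was not tested. The log2 ratio of RYBP was -1.46 (-2.70 to -0.37) between the controls and -0.70 (-1.68 to 0.21) after RB siRNA, both below the median beyond counting error. In these comparisons 8.40% and 5.74% of all shared summits lay below it in this way.

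MYC target genes had one at 11, 6, 11 and 7 of 30. HSPD1 and HSPE1, mitochondrial chaperone genes with a shared end, had 72.0, 81.7, 42.8 and 71.8 FPM at their 1 summit. EIF2S1, a translation initiation factor gene that shares its end with ATP6V1D, had 22.0, 22.0, 11.5 and 13.6. LDHA, of lactate production, had 12.2, 13.6, 10.1 and 10.7. Matched summits with a geometric mean of 5 FPM or more existed for 5 target genes under PD0332991 and 6 after RB siRNA. HSPD1 and HSPE1 counted through the same one. None of these genes lay beyond counting error of the median, and they are too few to read as no change. Their median log2 ratios were 0.16 and 0.48, against 0.20 and 0.45 over all shared summits. Under PD0332991, 7.56% of all shared summits lay below the median beyond counting error and 9.26% above. After RB siRNA these shares were 5.74% and 7.61%. Between the controls, ODC1, of polyamine synthesis, was lower in the inhibitor control, with 12.6 against 26.7 FPM (log2 ratio -1.08, -1.72 to -0.48). It lay below the median beyond counting error, as did 8.40% of all shared summits in that comparison. MLX and MondoA (MLXIP) target genes had a gene-end summit at 2, 0, 3 and 1 of 7. ARRDC4, an arrestin family gene, was listed in both controls, at 4.88 (inhibitor) and 4.60 FPM (siRNA), and with RB siRNA at 6.19.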

How the data were processed

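Chromatin of 22RV1 cells was profiled in 4 libraries, 1 per group, by an assay given as CUT&Tag. The submitters' processing notes name bcl2fastq 2.17, Trimmomatic 0.33, Bowtie2 (version given as 2), MACS2 2.1.0 and hg38, without order or settings. The labels' protocols describe fixed, sonicated chromatin with input and precipitated material, which differs from the assay name given. The deposited lists hold 1 library each. The deposited fold is the authors' ratio of the treatment pileup to the background at the summit, and −log10 p and −log10 q values were deposited beside it. The score column deposited by the authors adds nothing to them, being the −log10 p times 10 cut to a whole number, and was not used further.

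The fold (with a pseudocount of 1) and the Poisson p were solved for the background and the number of treatment fragments. At the genome-wide background all solved numbers were whole within 0.05. Of all intervals, 1, in the inhibitor control, could not be solved. Library totals assume a local window of 10000 bp and a genome of 2.7 Gb, and the assumed genome size cancels in ratios of libraries. Levels are FPM. Summits were paired as mutual nearest within 250 bp, ratios carry exact conditional 95% intervals, and “beyond counting error” means that this interval excluded the median ratio. Recovery and intervals were tested on simulated data. No test between groups was possible.

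The members, gene lists and tests were chosen with earlier results of these data known. Named genes are all members, the genes of each list with a gene-end summit in all 4 libraries (at most 4, by level in the inhibitor control) or beyond counting error in a comparison, the 5 nearest patterns, and genes that share an end; further list genes were named after their values were seen. Gene positions and promoter sequences came from RefSeq (GRCh38.p14), in which 8 of the 9 members had a listed start. Exons were not used here. Computations used Python 3.11.15, scipy 1.17.1, pandas 2.3.3 and matplotlib 3.10.9. Alternatives covered windows, matching distances, scalings, the deposited fold and a q minimum.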

Additional observations from a re-analysis of the deposited data

How the results depend on the processing

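Requiring a −log10 q of at least 1.3 left 0 members with a gene-end summit in each library and no matched member summit, so no ratio could be had there. A window of 500 bp gave 3 members under PD0332991 in place of 5, and the other counts stayed within 1.5 times. Matching within 100 or 500 bp left every ratio that could be had inside its interval; at 100 bp the MXD1 summit was not matched in the comparisons that involve the siRNA control.

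The ratio of the deposited folds moved most. After RB siRNA it reversed MXD3 to -0.16 and MXI1 to -0.74 and gave -0.42 for MXD1. Under PD0332991 it gave -0.52 for MXD1 and -1.42 for MXI1, and between the controls 0.68 for MXD3 and 1.04 for MXI1. By construction 1 fragment adds 0.0141, 0.0050, 0.0104 and 0.0032 to the fold (inhibitor control, PD0332991, siRNA control, RB siRNA), so folds are not comparable between lists.

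Taken relative to the median of shared summits, of shared gene-end summits and of summits shared by all 4 libraries (the last added after seeing the data), MXI1 after RB siRNA came to 0.28, 0.28 and 0.29. Between the controls MXI1 came to 0.92, 0.93 and 0.86, MXD1 to 0.06, 0.07 and 0.00, and MNT to 0.05, 0.06 and -0.01, a reversal. MXD3 came to 1.05 with the last. No paired analysis was possible because each group holds 1 library.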
